A study of Mus musculus with 2 samples.

Results

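The genes described here are 10 genes of the germ line, Dazl, Ddx4, Mael, Sycp1, Sycp3, Stra8, Tdrd1, Tex19.1, Hormad1 and Slc25a31. They were chosen by name, with earlier results of these data known, out of 22359 protein-coding genes with an annotated transcription start site (TSS), and no read count entered the choice rule. At each TSS, reads of chromatin precipitated with an anti-Msl1 or an anti-Nsl1 antibody were counted within 500 bases and within 2 kb, downstream of it, and from 5 to 50 kb on both sides, which gave the local level. The cells were mouse embryonic stem cells (mESCs), labelled E14, of wt genotype and 129P2/OlaHsd background, at passage 26, with no treatment named in the labels. There was 1 library per antibody, made with a NEXTFlex kit for Msl1 and with the NEBNext protocol for Nsl1, with reads of 50 and 36 bases, so that antibody, kit and read length cannot be told apart and no difference has a replicate check. Counted once per position and strand, the Msl1 library held 19483142 reads and the Nsl1 library 24883001 reads. Ranges in parentheses are exact 95% intervals and cover counting error only.

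Msl1 and Nsl1 are subunits of the MSL and NSL complexes, both of which carry the histone acetyltransferase Mof. Genes of the germ line serve germ granules, the defence against transposons and the pairing of chromosomes in meiosis, and most of them are kept silent in mESCs and somatic cells by DNA methylation and by repressor complexes. One of these repressors, a variant Polycomb complex, holds the DNA-binding proteins Mga, Max and E2f6, which recognise the E-box and an E2F6-type motif.

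The sequences just upstream of 4 genes are shown because these genes had the highest and the lowest ratios of reads to the local level. They come from the mm9 genome, read 5′ to 3′ on the strand of the gene, cover 200 bases and end before the most upstream annotated TSS of the gene. None of these stretches overlapped an annotated transcript. Capitals mark the E-box CACGTG, which reads the same on both strands, and the E2F6-type motif TCCCGC or its reverse complement GCGGGA. Hormad1 (chr3:95363399-95363598, plus strand) had the highest Nsl1 ratio, Sycp1 (chr3:102740024-102740223, minus strand) the highest Msl1 ratio, Tdrd1 (chr19:56900499-56900698, plus strand) the lowest Msl1 ratio and Stra8 (chr6:34869963-34870162, plus strand) the lowest Nsl1 ratio. These ranks depend on the setting. With the level of the whole genome in place of the local level, Tex19.1 was the highest for Msl1 (5.45) and Nsl1 (5.97), and Dazl the lowest for Msl1 (1.63).
Hormad1 upstream: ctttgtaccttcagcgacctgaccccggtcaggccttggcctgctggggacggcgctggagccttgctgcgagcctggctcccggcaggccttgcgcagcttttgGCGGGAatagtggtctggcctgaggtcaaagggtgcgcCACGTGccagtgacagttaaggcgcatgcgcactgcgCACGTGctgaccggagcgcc
Sycp1 upstream: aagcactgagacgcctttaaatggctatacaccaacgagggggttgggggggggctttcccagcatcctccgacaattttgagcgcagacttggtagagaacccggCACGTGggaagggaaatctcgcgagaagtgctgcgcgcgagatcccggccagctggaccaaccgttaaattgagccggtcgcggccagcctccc
Tdrd1 upstream: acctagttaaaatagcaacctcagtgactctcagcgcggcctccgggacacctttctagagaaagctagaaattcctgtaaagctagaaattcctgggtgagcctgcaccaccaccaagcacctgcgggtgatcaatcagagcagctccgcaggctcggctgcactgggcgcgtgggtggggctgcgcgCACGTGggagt
Stra8 upstream: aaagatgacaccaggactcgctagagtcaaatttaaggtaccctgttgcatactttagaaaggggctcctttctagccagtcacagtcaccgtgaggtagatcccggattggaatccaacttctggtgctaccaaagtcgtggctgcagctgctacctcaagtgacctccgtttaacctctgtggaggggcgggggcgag

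In the 300-base promoters, from 250 bases before to 50 bases after the TSS, 7 of the 10 genes held an E-box and 7 of 10 held the E2F6-type motif on either strand. Of all promoters of the same length, 7.85% held the E-box and 25.0% held the E2F6-type motif. Both motifs were found in 6 of the 10 promoters, those of Ddx4, Mael, Sycp1, Sycp3, Hormad1 and Slc25a31, and in 2.57% of all promoters. Among all promoters with a CpG observed over expected of at least 0.6, the shares were 11.2% for the E-box, 43.9% for the E2F6-type motif and 4.81% for both. Of 48 other germline genes, described further on, 14 held the E-box, 15 the E2F6-type motif and 3 both. The letters TGACGTCA, a full CRE that is its own reverse complement, were in none of the 10 promoters and in 2.38% of all. No E-box of the 10 promoters overlapped an E2F6-type motif. A match is only a description of the letters. Dazl and Stra8 held neither of the first 2 motifs, Tdrd1 held an E-box only, and Tex19.1 held the E2F6-type motif only, 33 bases before its TSS.

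The E-boxes of the 7 genes are shown with 10 bases on each side, because their distance from the TSS can be set against the positions of the reads given further on. Sycp3 and Hormad1 had 2 E-boxes each. The number in each name is the distance in bases from the first base of the E-box to the TSS.
Ddx4 E-box 29 bases upstream (chr13:113442532-113442557, minus strand): cgtccgcccgCACGTGcagccgttta
Mael E-box 223 bases upstream (chr1:168169083-168169108, minus strand): ccaggcctacCACGTGacaatccccg
Sycp1 E-box 94 bases upstream (chr3:102740102-102740127, minus strand): gagaacccggCACGTGggaagggaaa
Sycp3 E-box 46 bases upstream (chr10:87922258-87922283, plus strand): cgttggctccCACGTGagaacgggca
Sycp3 E-box 25 bases upstream (chr10:87922279-87922304, plus strand): gggcatggagCACGTGctaggaggcg
Tdrd1 E-box 88 bases upstream (chr19:56900678-56900703, plus strand): gggctgcgcgCACGTGggagtaaact
Hormad1 E-box 58 bases upstream (chr3:95363532-95363557, plus strand): aagggtgcgcCACGTGccagtgacag
Hormad1 E-box 21 bases upstream (chr3:95363569-95363594, plus strand): gcgcactgcgCACGTGctgaccggag
Slc25a31 E-box 77 bases upstream (chr3:40512690-40512715, plus strand): caactggaaaCACGTGttatggtcac
Of these 9 E-boxes, 8 began within 100 bases upstream of the TSS, and the E-box of Mael began 223 bases upstream.

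In the Msl1 library 5 of the 10 genes had at least 2 times the local level of reads within 500 bases of the TSS, where 45.8% of all protein-coding TSSs reached that fold. In the Nsl1 library 7 of 10 did, against 41.3% of all TSSs. Sycp1, Sycp3, Tex19.1 and Hormad1 were at least 2 times the local level in both libraries, 4 of 10 genes against 30.4% of all TSSs. The median ratio of the 10 genes was 1.98 for Msl1, beside 1.85 for all TSSs, and 2.89 for Nsl1, beside 1.71 for all TSSs. A promoter CpG observed over expected of at least 0.6 was found at 8 of the 10 genes. All TSSs with such a promoter had medians of 2.74 for Msl1 and 2.66 for Nsl1. The lower bound of the interval was above 1 at 7 of the 10 genes for Msl1 and at 8 of 10 for Nsl1, against 52.9% and 50.8% of all TSSs. With reads within 250 bases it was above 1 at 3 genes for Msl1, Sycp1, Tex19.1 and Hormad1, and at 7 for Nsl1, against 36.6% and 45.3% of all TSSs, and the Msl1 intervals of Mael, Sycp3, Stra8 and Slc25a31 then included 1. At least 2 times the local level within 250 bases was found at the same numbers of genes, 3 and 7, against 38.8% and 45.4%. With the level of the whole genome in place of the local level 9 genes reached the fold for Msl1 and 8 for Nsl1, against 59.3% and 54.0% of all TSSs. At 1.5 times the local level the counts were 9 of 10 for Msl1 and 8 of 10 for Nsl1, against 60.8% and 57.7% of all TSSs, and at 3 times they were 1 and 5, against 23.4% and 24.0%. The fold of 2 passed close to a pair of values, a Msl1 ratio of 2.09 at Hormad1 and a Nsl1 ratio of 1.98 at Mael.

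**Figure D1:**
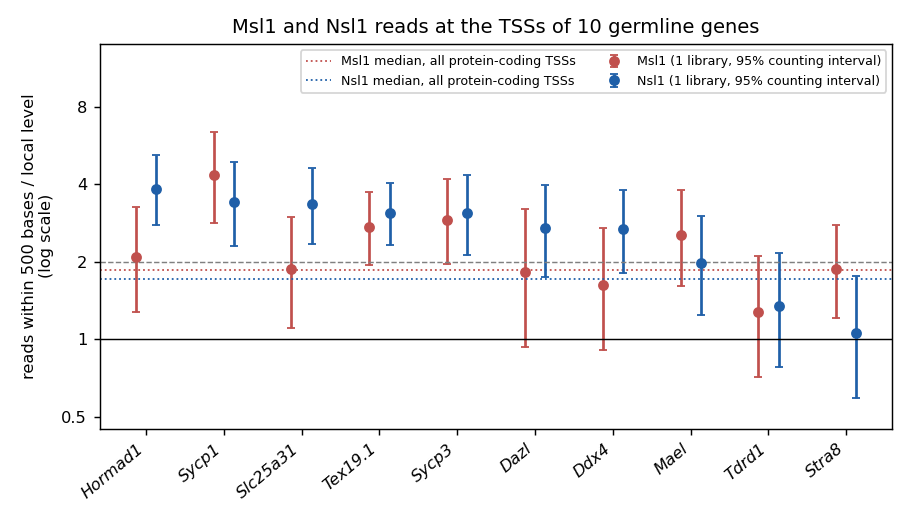
Reads within 500 bases of the TSS over the local level (log axis) for each of the 10 germline genes, as 1 point per library with its exact 95% counting interval (bars), for Msl1 and Nsl1. The Msl1 ratios lie between 1.27 and 4.34 and the Nsl1 ratios between 1.06 and 3.84, and the intervals of Tdrd1 include 1 in both libraries.

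Sycp1, Sycp3 and Hormad1 code for proteins of the meiotic chromosome axis and of the synaptonemal complex, which holds paired chromosomes together, and all 3 had at least 2 times the local level in both libraries, Hormad1 only narrowly for Msl1. At Sycp1, the transverse filament protein (TSS on chromosome 3 at 102740023), 27 Msl1 reads gave a ratio of 4.34 (2.84–6.39) and 31 Nsl1 reads a ratio of 3.41 (2.30–4.87). Its Msl1 ratio was higher than that of 92.9% of all TSSs. Within 500 bases of the Sycp1 TSS, 100% of positions started a sequence found once in the genome. In its local level 85.9% did so at 50 bases and 82.6% at 36 bases. With unique positions only the Sycp1 ratios were 3.73 (2.44–5.48) for Msl1 and 2.82 (1.90–4.03) for Nsl1. With a local level from 10 to 100 kb its Msl1 ratio was 3.44 (2.26–5.03). At Sycp3, of the lateral elements (chromosome 10 at 87922314), 30 Msl1 reads gave 2.91 (1.95–4.19) and 34 Nsl1 reads gave 3.08 (2.12–4.33). Both libraries thus lay above the local level at these genes, with intervals that overlapped each other between libraries.

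Hormad1, which marks unsynapsed chromosome axes (chromosome 3 at 95363600), differed more between the libraries. There were 20 Msl1 reads within 500 bases, a ratio of 2.09 (1.27–3.25), and 44 Nsl1 reads, a ratio of 3.84 (2.78–5.20). The Nsl1 ratio was 1.84 times the Msl1 ratio (1.05–3.32). Hormad1 was the only one of the 10 genes at which the interval of that quotient excluded 1, and this held neither with reads at their 5′ end, 1.56 (0.911–2.74), nor with the level of the whole genome, 1.72 (0.994–3.09). Other genes had such an interval under an alternative, and with reads within 250 bases 4 did, Sycp3 with 2.42 (1.12–5.66), Tex19.1 with 2.5 (1.36–4.84), Hormad1 with 2.86 (1.46–6.0) and Slc25a31. The share of all TSSs with such an interval was not computed, so these counts cannot be read against it. The Msl1 ratio of Hormad1 was below 2 with all reads kept (1.88), with a local level from 10 to 100 kb (1.67) and with unique positions only (1.99).

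Dazl and Ddx4 code for RNA-binding proteins of germ cells, Dazl a regulator of translation and Ddx4 the Vasa helicase of germ granules, and both reached 2 times the local level for Nsl1 and not for Msl1 with 1 read kept per position and strand. At Dazl (chromosome 17 at 50432924) 12 Msl1 reads gave a ratio of 1.82 (0.935–3.20) and 26 Nsl1 reads gave 2.69 (1.75–3.97). At Ddx4 (chromosome 13 at 113442518) 15 Msl1 reads gave 1.62 (0.905–2.70) and 31 Nsl1 reads gave 2.67 (1.8–3.81). The Msl1 intervals of both genes included 1. With all reads kept they did not, with Msl1 ratios of 2.06 (1.19–3.32) at Dazl and 2.0 (1.25–3.05) at Ddx4, and with the level of the whole genome that of Ddx4 was 2.04 (1.14–3.37). The Nsl1 over Msl1 quotients were 1.48 (0.714–3.25) at Dazl and 1.64 (0.853–3.29) at Ddx4, and both intervals included 1.

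Mael, Tdrd1 and Tex19.1 act in the control of transposons, Mael and Tdrd1 in the piRNA pathway of germ granules, and Tex19.1 had the most reads of the 10 genes in both libraries. At Tex19.1 (chromosome 11 at 121007457), 40 Msl1 reads gave 2.72 (1.93–3.72) and 56 Nsl1 reads gave 3.10 (2.33–4.04). Its local level was also the highest, with 14.7 Msl1 reads and 18.1 Nsl1 reads per kb. Of the 1001 positions within 500 bases of the Tex19.1 TSS, 91.3% started a 50-base sequence found once in the genome and 84.8% a 36-base sequence found once, so that part of this window could hold no unique reads.

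At Mael (chromosome 1 at 168168875), 24 Msl1 reads gave 2.53 (1.61–3.79) and 22 Nsl1 reads gave 1.98 (1.24–3.02). Reads within 250 bases gave 1.68 (0.725–3.33) for Msl1 and 1.8 (0.861–3.32) for Nsl1. At Tdrd1 (chromosome 19 at 56900776), 15 Msl1 reads gave 1.27 (0.710–2.11) and 17 Nsl1 reads gave 1.35 (0.783–2.17). Tdrd1 was thus within counting error of the local level in both libraries. With the level of the whole genome its ratios were 2.04 (1.14–3.37) for Msl1 and 1.81 (1.06–2.90) for Nsl1. The nearest TSS of another gene, that of A630007B06Rik on the opposite strand and 4096 bases upstream, had 53 Msl1 reads, a ratio of 4.51 (3.36–5.95), and 26 Nsl1 reads, a ratio of 2.05 (1.33–3.02). None of the other 9 genes had the TSS of another gene within 5 kb.

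Stra8, the retinoic acid target needed to enter meiosis, and Slc25a31, an ADP/ATP carrier of mitochondria in male germ cells, both lay below 2 times the local level for Msl1, and Slc25a31 had the higher Nsl1 ratio. At Stra8 (chromosome 6 at 34870163), 25 Msl1 reads gave 1.87 (1.20–2.77) and 15 Nsl1 reads gave 1.06 (0.592–1.76). At Slc25a31 (chromosome 3 at 40512777), 18 Msl1 reads gave 1.87 (1.10–2.97) and 37 Nsl1 reads gave 3.34 (2.34–4.64). With a local level from 10 to 100 kb the Msl1 ratios were 2.18 (1.41–3.23) at Stra8 and 1.79 (1.06–2.84) at Slc25a31, and with the level of the whole genome 3.40 (2.20–5.02) and 2.45 (1.45–3.87). The Nsl1 over Msl1 quotient was 0.568 (0.277–1.13) at Stra8, the lowest of the 10 genes, and 1.79 (0.983–3.36) at Slc25a31. Both intervals included 1. That of Slc25a31 excluded 1 under 4 alternatives, 2.71 (1.23–6.55) with reads within 250 bases, 1.84 (1.02–3.45) with a local level from 10 to 100 kb, 1.84 (1.01–3.45) with reads moved by 100 bases and 1.85 (1.00–3.53) with reads at their 5′ end. That of Stra8 excluded 1 with the level of the whole genome, 0.470 (0.230–0.927). Across the 10 genes the Nsl1 ratio was the higher one at 7, against 51.7% of all TSSs. That count was 5 with the level of the whole genome in place of the local level, where Sycp3 and Tdrd1 turned, and 9 with reads within 250 bases, where Mael and Sycp1 turned. The share of all TSSs was not computed under these settings.

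Within 2 kb the ratio was lower than within 500 bases at 10 of the 10 genes for Msl1, against 69.5% of all TSSs with a read there, and at 9 of 10 for Nsl1, against 74.6%, with Stra8 as the exception. The median within 2 kb was 1.39 for Msl1 and 1.51 for Nsl1, beside 1.53 and 1.35 for all TSSs. At least 2 times the local level within 2 kb was found at 2 of 10 genes for Msl1, Sycp1 with 2.33 (1.75–3.06) and Tex19.1 with 2.16 (1.79–2.59), where 29.3% of all TSSs reached it. For Nsl1 none of the 10 genes reached it, against 16.9% of all TSSs, and the highest was Sycp3 with 1.97 (1.56–2.46).

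**Figure D2:**
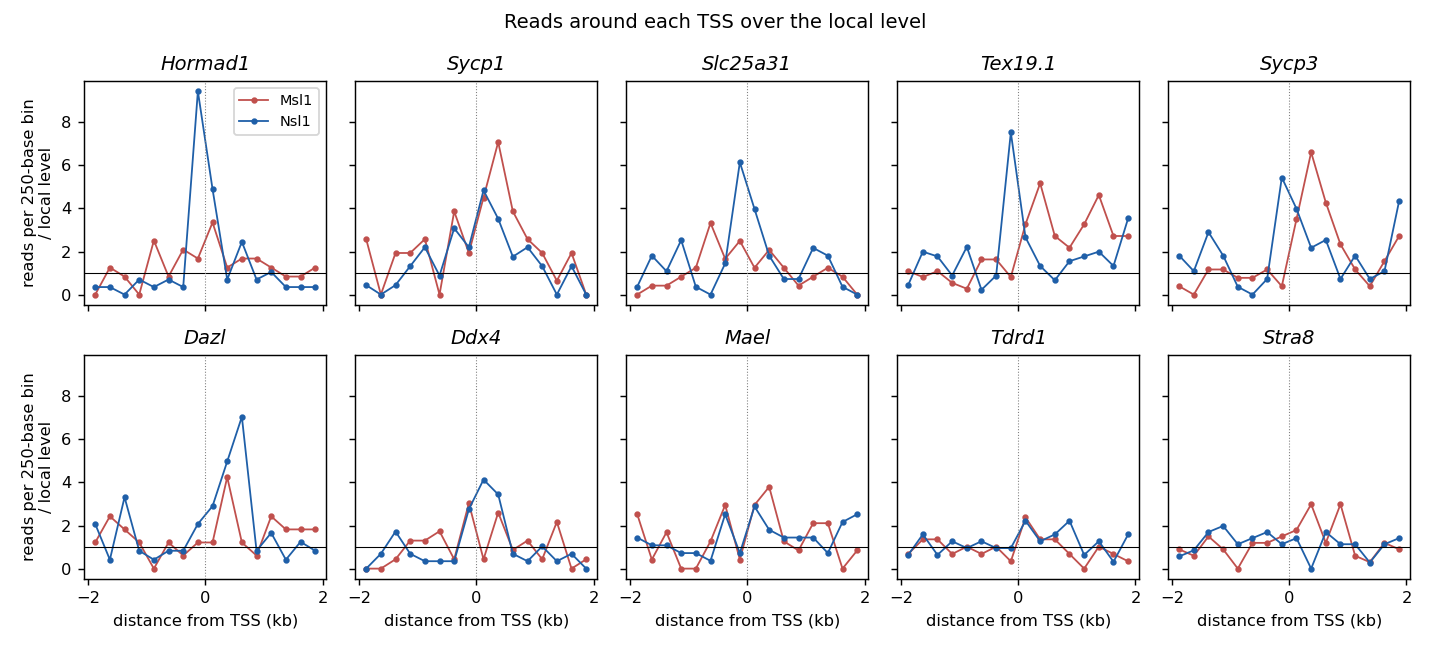
Reads per 250-base bin over the local level from 2 kb upstream to 2 kb downstream of the TSS of each of the 10 genes, 1 panel per gene, with 1 line for Msl1 and 1 for Nsl1. The highest Nsl1 bins are those just upstream of the TSS of Hormad1, at 9.45, and of Tex19.1, at 7.53.

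The libraries differed in where the reads lay. Summed over the 10 genes, the bin from 250 to 500 bases downstream held the most Msl1 reads, with 91 reads and a ratio of 3.61 (2.90–4.44), where all TSSs gave 3.05. The 250 bases upstream of the TSS held the most Nsl1 reads, with 120 reads and 4.01 (3.32–4.80), where all TSSs gave 3.04. The reads of single genes in this bin ran from 2 at Mael to 34 at Tex19.1. The interval of a sum does not cover such a spread between genes, and no gene was left out of the sums by bin. The next 250 bases downstream gave 98 Nsl1 reads and 3.27 (2.66–3.99), beside 3.10 for all TSSs. In the bin from 250 bases upstream to the TSS, where Nsl1 was highest, Msl1 had 33 reads and a ratio of 1.31 (0.901–1.84), where all TSSs gave 1.38.

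In other bins the Nsl1 ratio of the 10 genes lay on either side of that of all TSSs. From 750 to 500 bases upstream, 18 Nsl1 reads gave 0.601 (0.356–0.951), where all TSSs gave 1.39. From 1500 to 1250 bases upstream, 44 reads gave 1.47 (1.07–1.97), where all TSSs gave 1.10, and from 1750 to 2000 bases downstream, 48 reads gave 1.6 (1.18–2.13), where all TSSs gave 1.07. All bins named here were picked by their values and are given as a description.

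**Figure D3:**
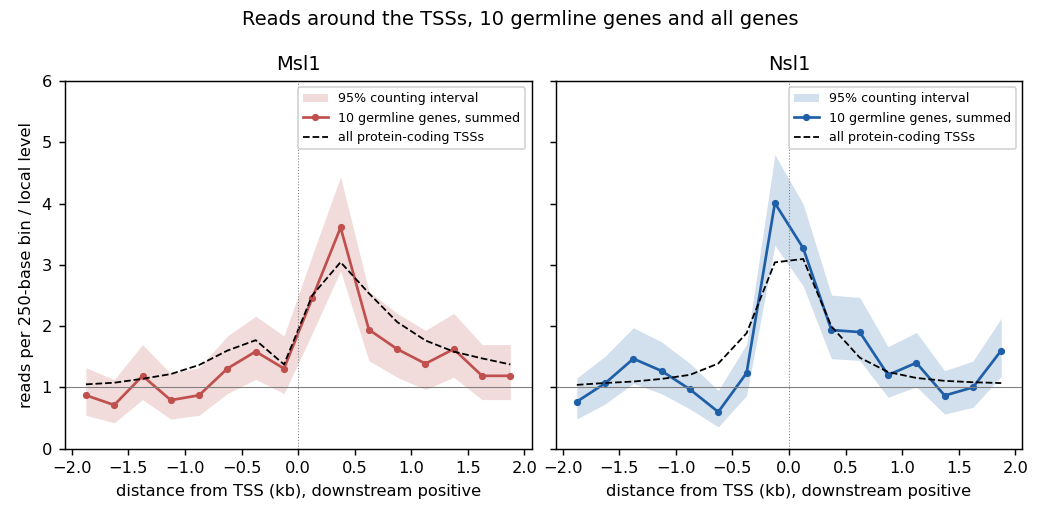
Reads per 250-base bin over the local level, summed over the 10 germline genes (line, with the shaded 95% counting interval), against distance from the TSS in kb, for Msl1 (left) and Nsl1 (right), with all protein-coding TSSs as a dashed line. Msl1 is highest at 3.61 in the bin from 250 to 500 bases downstream and Nsl1 at 4.01 in the bin just upstream.

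Gene by gene, the bin from 250 to 500 bases downstream was the single highest Msl1 bin at 5 of the 10 genes, Dazl, Mael, Sycp1, Sycp3 and Tex19.1, against 19.7% of all TSSs with a read within 2 kb. At Stra8 it tied with the bin from 750 to 1000 bases downstream, with 10 reads and a ratio of 2.99 (1.43–5.52) in each. Of the 5 genes, Sycp1 had 11 reads and a ratio of 7.08 (3.52–12.8), Sycp3 had 17 reads and 6.61 (3.83–10.6), and Tex19.1 had 19 reads and 5.17 (3.10–8.11). The highest Nsl1 bin was the one just upstream of the TSS at 4 genes, against 16.2% of all such TSSs, and the one just downstream at 3, Ddx4, Mael and Sycp1, against 18.6%. At Tdrd1 the bin just downstream and the one from 750 to 1000 bases downstream tied, with 7 Nsl1 reads and a ratio of 2.22 (0.892–4.60) in each, an interval that includes 1.

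The 4 genes with their highest Nsl1 bin just upstream were Hormad1, Tex19.1, Slc25a31 and Sycp3. In these 250 bases Hormad1 had 27 reads and a ratio of 9.45 (6.19–13.8), Tex19.1 had 34 reads and 7.53 (5.20–10.6), Slc25a31 had 17 reads and 6.14 (3.56–9.89), and Sycp3 had 15 reads and 5.44 (3.03–9.01). The E-boxes printed above for Hormad1, Slc25a31 and Sycp3 lie in this bin, and so do the E2F6-type motifs of Tex19.1, Hormad1 and Sycp3. The E2F6-type motif of Slc25a31 lies outside it, 36 bases after the TSS. The E-boxes of Ddx4, Mael, Sycp1 and Tdrd1 lie in the same bin, and the highest Nsl1 bins of these genes, tied at Tdrd1, were downstream of the TSS. An E2F6-type motif of Ddx4 and one of Mael lie in the upstream bin too. Both motifs were searched only in the 300-base promoters, most of which is this bin. A match could hardly lie elsewhere, so its overlap with a highest bin is nearly fixed by the search. Each of these highest bins was picked by its value.

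Dazl and Stra8 had their highest Nsl1 bin elsewhere. At Stra8 it was the bin from 1250 to 1000 bases upstream, with 7 reads and a ratio of 1.98 (0.796–4.10), an interval that includes 1. At Dazl it was the bin from 500 to 750 bases downstream of the TSS used here, with 17 reads and 7.05 (4.09–11.4). The annotation gives Dazl another TSS 707 bases downstream. Within 500 bases of that TSS there were 14 Msl1 reads, a ratio of 2.13 (1.16–3.60), and 34 Nsl1 reads, a ratio of 3.50 (2.41–4.93), both higher than at the first TSS and with overlapping intervals.

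Stra8 and Tdrd1 also have other annotated TSSs. At Stra8, TSSs 797 and 851 bases downstream had Msl1 ratios of 1.81 (1.16–2.71) and 1.73 (1.09–2.61) and a Nsl1 ratio of 1.07 (0.595–1.77) at both. At Tdrd1, a TSS 4426 bases downstream had a Msl1 ratio of 0.874 (0.435–1.57) and a Nsl1 ratio of 1.5 (0.900–2.35). A second annotated TSS of Sycp1, 102306 bases downstream, had 0 reads in both libraries, but 0 of the 1001 positions around it start a sequence of 50 or 36 bases that is found once in the genome, so that no unique read could be placed there.

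Downstream of the promoter there were fewer reads per kb in both libraries. From 500 to 2000 bases downstream, the Msl1 reads per kb summed over the 10 genes were 0.667 (0.552–0.806) times those within 500 bases, where all TSSs gave 0.828. The Nsl1 reads were 0.510 (0.429–0.605) times, where all TSSs gave 0.477. Over the 7 genes at least 2 times the local level for Nsl1, this share was 0.713 (0.572–0.888) in the Msl1 library and 0.423 (0.345–0.516) in the Nsl1 library. Over the other 3 genes it was 0.553 (0.377–0.808) for Msl1 and 0.927 (0.645–1.34) for Nsl1, an interval that includes 1. The 7 genes were picked by the Nsl1 reads that form the divisor, so that their low Nsl1 value is in part fixed by the choice.

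At single genes the lowest downstream ratios were those of Nsl1 at Ddx4, 0.194 (0.0811–0.417), and at Hormad1, 0.228 (0.118–0.417). The highest Msl1 ratio was that of Tex19.1, where 67 reads from 500 to 2000 bases downstream gave 1.12 (0.745–1.70). Without Tex19.1 the summed Msl1 ratio was 0.570. The genes of naive pluripotency, expressed in mESCs and taken as a list of 14 genes, had a summed Msl1 downstream ratio of 1.70 (1.52–1.90) and a Nsl1 ratio of 0.693 (0.588–0.816). For a list of 26 genes specific to differentiated somatic tissues the ratios were 1.09 (0.928–1.28) for Msl1 and 1.01 (0.887–1.15) for Nsl1, and both intervals included 1.

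Beyond 2 kb into the gene, reads were below the local level at most of the genes. Tex19.1 is too short for this count. Of the other 9 genes, 8 had fewer reads per kb than their local level in the Msl1 library, against 39.7% of all protein-coding genes long enough, and 8 in the Nsl1 library, against 51.2%. Hormad1 was the exception for Msl1, with 9.62 reads per kb against a local 9.56, and Tdrd1 for Nsl1, with 13.0 against 12.6. The widest gap was at Sycp3, where 73 Msl1 reads gave 6.26 reads per kb against a local level of 10.3. Other gaps were small, such as 8.79 against 9.22 for Msl1 at Ddx4 and 13.7 against 14.1 for Nsl1 at Stra8. No interval was computed here, so which gaps exceed counting error was not tested. The stretch beyond 2 kb also overlaps the window of the local level, so these values are not independent. Reads per kb were taken over all positions, unique or not.

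Set directly against each other within 2 kb, the reads of both libraries, per read of the library, had a Msl1 over Nsl1 ratio of 1.28 in the median of the 14637 TSSs with at least 100 reads. At the 10 genes the ratio ran from 0.708 (0.471–1.05) at Dazl to 1.28 at Sycp1 (0.872–1.87) and Stra8 (0.894–1.82). Ddx4, with 89 reads in all, was below the limit of 100 reads. At Tex19.1, the gene with the most reads, 127 Msl1 and 139 Nsl1 reads gave 1.17 (0.910–1.5). This ratio counts reads within 2 kb with no local level, and the number of distinct reads of each library enters it.

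The CpG content of the promoter went with the reads over all TSSs and is given here beside the counts of the 10 genes. In the 300-base promoters, CpG observed over expected was highest at Ddx4 with 0.978, followed by Sycp1 with 0.874, Dazl with 0.830 and Tdrd1 with 0.804. It was lowest at Stra8 with 0.369, and Tex19.1 with 0.575 was the other gene below 0.6. Of all TSSs with at least 0.6, 74.1% had at least 2 times the local level for Msl1 and 66.2% for Nsl1. Of all TSSs below 0.6, 20.9% did for Msl1 and 19.6% for Nsl1. Among the 8 of the 10 genes with at least 0.6, Msl1 reached that fold at 4 (50%) and Nsl1 at 6 (75%), the latter near the 66.2% of all such TSSs. The medians of these 8 genes were 1.98 for Msl1 and 2.89 for Nsl1, beside 2.74 and 2.66 for all such TSSs. The part of CpG content in the counts was not tested.

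**Figure D4:**
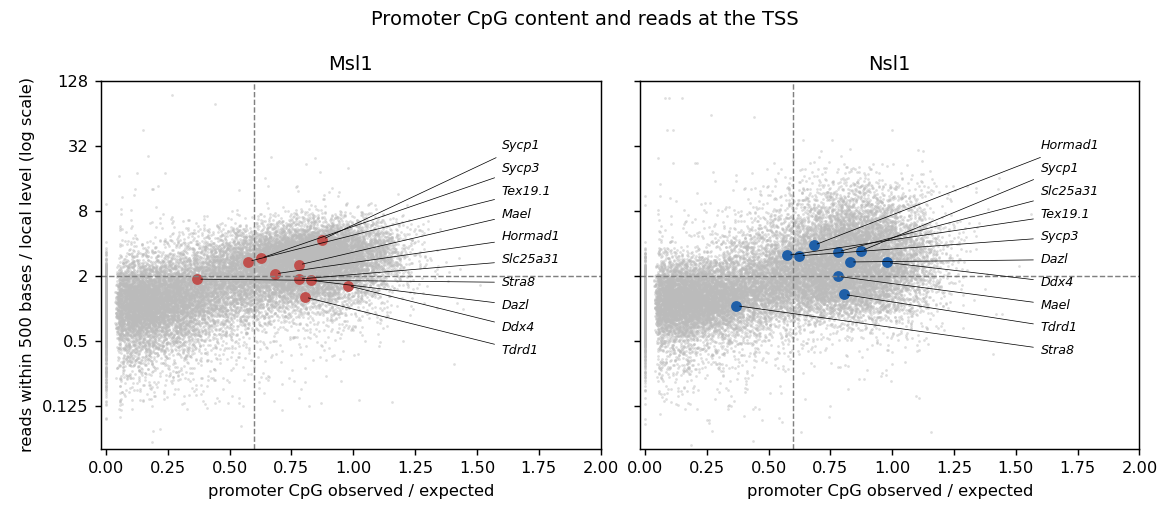
Promoter CpG observed over expected against the reads within 500 bases over the local level (log axis), 1 grey point per protein-coding TSS and 1 large, named point per germline gene, for Msl1 (left) and Nsl1 (right). The dashed lines mark a CpG value of 0.6 and a ratio of 2, and TSSs at 0 reads (698 for Msl1 and 628 for Nsl1) cannot be drawn on a log axis. Ddx4 and Tdrd1 combine CpG values of 0.978 and 0.804 with Msl1 ratios of 1.62 and 1.27.

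Other genes of the germ line were counted as 3 lists of 50 genes in all, of which 48 were found in the annotation. Msl1 was at least 2 times the local level at 15 of the 48 (31.2%) and Nsl1 at 29 (60.4%), against 45.8% and 41.3% of all TSSs. Both libraries reached the fold at 12 of the 48, where 30.4% of all TSSs did. The medians were 1.69 for Msl1 and 2.14 for Nsl1. Of these 48 genes, 4 had the TSS of another protein-coding gene within 1 kb. Without them Msl1 was at least 2 times the local level at 13 of 44 and Nsl1 at 25. Among the 26 genes with a CpG value of at least 0.6 the counts were 11 for Msl1 (42.3%) and 20 for Nsl1 (76.9%). Of all such TSSs, 74.1% and 66.2% reached the fold. Among the 22 below the counts were 4 (18.2%) and 9 (40.9%), where 20.9% and 19.6% of all such TSSs did.

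Of 19 germ granule and piRNA genes, which work beside Mael, Tdrd1 and Ddx4, 7 (36.8%) reached the fold for Msl1 and 10 (52.6%) for Nsl1. Of all TSSs, 45.8% and 41.3% did. The highest Nsl1 ratio was that of Stk31, of the Tudor family, with 65 reads and 6.60 (5.05–8.49), followed by Asz1 with 5.11 (3.51–7.22) and Fkbp6 with 4.10 (3.11–5.31). For Msl1 the highest were Tdrd6 with 3.39 (2.32–4.80) and Ddx25 with 2.53 (1.58–3.86). Asz1, Gtsf1, Pld6, Fkbp6 and Ddx25 reached the fold in both libraries. Nanos2, an RNA-binding protein of male germ cells, was low in both, with 0.670 (0.306–1.28) for Msl1 and 0.715 (0.342–1.32) for Nsl1.

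Of 22 meiosis genes, which work beside Sycp1, Sycp3 and Hormad1, 6 (27.3%) reached the fold for Msl1 and 16 (72.7%) for Nsl1. Of all TSSs, 45.8% and 41.3% did. All 6 were among the 16, and they were Tex14, Tex15, Dmc1, Mei4, Prdm9 and Psmc3ip. Prdm9, the histone methyltransferase that places recombination sites, was the highest in both libraries, with 4.11 (2.87–5.72) for Msl1 and 5.98 (4.55–7.74) for Nsl1. Syce1, of the central element of the synaptonemal complex, had a Nsl1 ratio of 5.67 (4.36–7.26), and Msh4, of meiotic crossing over, one of 5.16 (3.90–6.70). The lowest Nsl1 ratio was that of Spo11, which makes the DNA breaks of meiosis, with 0.763 (0.380–1.37), and the lowest Msl1 ratio that of Rad21l with 0.295 (0.0608–0.866).

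Of 7 genes coding for regulators of the germ line, 2 (28.6%) reached the fold for Msl1 and 3 (42.9%) for Nsl1, where 45.8% and 41.3% of all TSSs did. Sohlh2, a transcription factor of early germ cells, did so in both, with 2.52 (1.55–3.89) and 3.40 (2.38–4.73).

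Lists of other genes were counted in the same way, to be read against the 45.8% and 41.3% of all TSSs. Of 14 naive pluripotency genes 10 reached the fold for Msl1 and 4 for Nsl1, with medians of 2.60 and 1.67, and Klf5 was the highest for Msl1 with 5.91 (4.61–7.48). Of 26 genes specific to differentiated somatic tissues, none reached it for Msl1 and 1 for Nsl1, Cyp3a11 of the liver with 13 reads and 2.07 (1.10–3.57), and all 26 have a CpG value below 0.6. Of 15 genes of known repressors of germline genes 8 reached it for Msl1 (53.3%) and 10 for Nsl1 (66.7%). A CpG value of at least 0.6 was found at 14 of the 15, of which 7 reached the fold for Msl1 and 10 for Nsl1, where 74.1% and 66.2% of all such TSSs did. Kdm5c, a histone demethylase, was the highest of these in both libraries, with 7.90 (5.85–10.5) and 5.88 (4.14–8.14). E2f6 had a Msl1 ratio of 4.38 (3.08–6.07) and Mga a Nsl1 ratio of 4.59 (3.40–6.09). The lowest were Dnmt3a, a DNA methyltransferase, for Msl1 with 0.889 (0.425–1.64), beside 0.566 (0.244–1.12) for Nsl1, and Ehmt2, a histone methyltransferase, for Nsl1 with 0.362 (0.133–0.790), beside 1.8 (1.18–2.63) for Msl1.

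**Figure D5:**
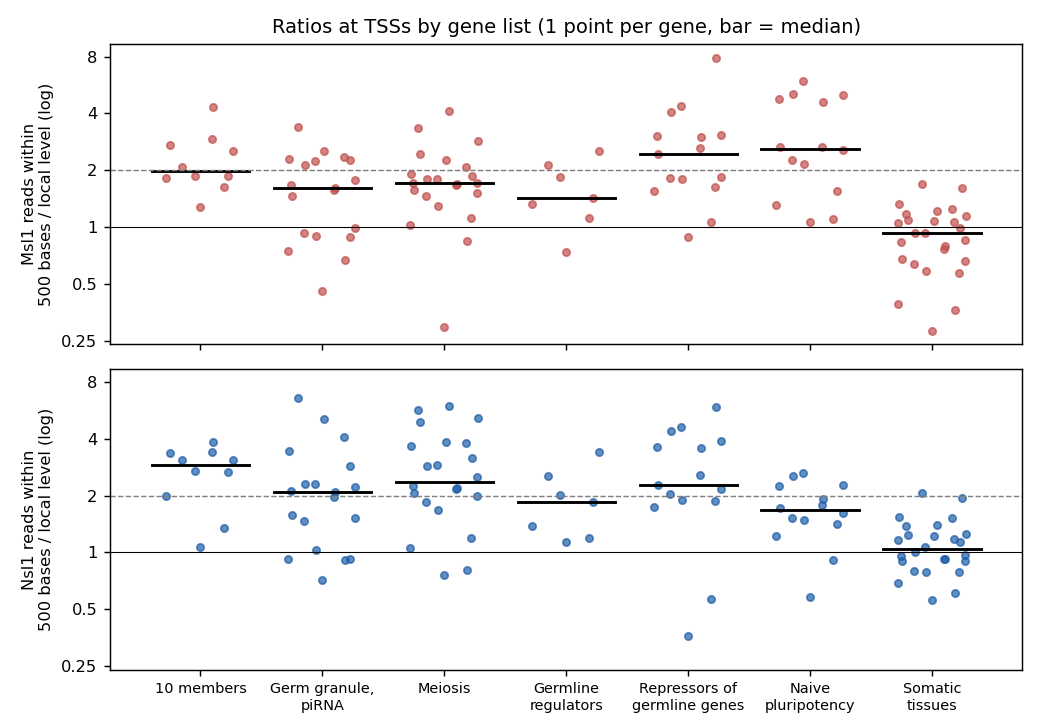
Reads within 500 bases of the TSS over the local level (log axis) by list of genes, 1 point per gene and a bar at the median, for Msl1 (top) and Nsl1 (bottom), with a dashed line at a ratio of 2. The median of the 10 germline genes is 1.98 for Msl1 and 2.89 for Nsl1, and that of the somatic genes 0.930 and 1.04.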

How the data were processed

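ChIP-seq of Msl1 and Nsl1 in wt mESCs was used (n = 1 per antibody). Single-end reads were mapped by the authors to mm9 with Bowtie 0.12.7 after base calling with CASAVA 1.8.2, per the submitters' processing notes, and their methods state that unique reads were used. The deposited files list the start, end and strand of each mapped read, 23888517 reads of 50 bases for Msl1 and 26084098 reads of 36 bases for Nsl1. The score the authors deposited was 255 on every line and was not used. The Input used by the study was not used here.

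From these positions, mitochondrial reads were left out and repeats of a start and strand dropped. The dropping of repeats kept 81.7% of the remaining Msl1 reads and 95.4% of the remaining Nsl1 reads. Reads were moved to the fragment middle by 105 bases for Msl1 and 66 for Nsl1, from the strand cross-correlation on chromosomes 16, 18 and 19. The TSS was that of the lowest-numbered protein-coding transcript in GENCODE vM1, and positions count the TSS as 0. TSSs with no reads in the local level were left out of the shares of all TSSs set against the local level (22182 TSSs were used for Msl1, 22194 for Nsl1 and 22167 for both). The shares with the level of the whole genome and the shares of promoters with a motif were taken over all 22359 TSSs. Ratios are per kb, with exact conditional binomial intervals, and single bins have intervals of the same kind. Since each antibody has 1 library, nothing was tested between samples and no p-value was computed. The windows of the 10 genes held between 12 and 56 reads, which sets the width of the intervals. The tools were scipy 1.17.1, numba 0.67.0, pyarrow 21.0.0, pandas 2.3.3 and numpy 2.4.6 under Python 3.11.15, and plots were drawn with matplotlib 3.10.9. The counting was tested on simulated data.

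The 10 genes and all lists were chosen with earlier results of these data known. From each list, the genes that may be named are the 3 highest and 2 lowest ratios in each library and, for the lists of other germline genes, those at least 2 times the local level in both libraries. A neighbouring gene was named where its TSS lay within 5 kb. Tdrd5, Rec114 and Tfcp2l1 were not matched by symbol. The alternatives were all reads kept, reads at their 5′ end, a move of 100 bases, a local level from 10 to 100 kb or from the whole genome, the most upstream TSS, unique positions only, a window of 250 bases, folds of 1.5 and 3, a downstream window from 1000 bases, and each gene left out of the downstream sums.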

Additional observations from a re-analysis of the deposited data

How the results depend on the processing

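The number of the 10 genes at or above the fold for Msl1, 5 at 2 times the local level, was 9 with the level of the whole genome in place of the local level, 9 at 1.5 times and 1 at 3 times, where 59.3%, 60.8% and 23.4% of all TSSs did so. With reads within 250 bases it was 3, and the number with a lower bound above 1 went from 7 to 3 for Msl1, counts added after seeing the data. The other 99 summary values under an alternative stayed within 1.5 times for a count, or within the 95% interval for a downstream ratio. A count of 7 or 8 of the 10 genes could not rise past 1.5 times, so for such counts a rise could not be seen as a move. Medians were held to the range from the median of the lower bounds to that of the upper bounds, and within it the Msl1 median went from 1.98 to 2.99 with the level of the whole genome. The Msl1 intervals of Sycp3, 1.94 (0.927–3.58), Stra8, 1.64 (0.817–2.95), Slc25a31, 1.87 (0.851–3.56), and Mael, and the Nsl1 interval of Mael, came to include 1 with reads within 250 bases. Which library was higher did turn, at Tdrd1 (whole genome, 5′ ends, most upstream TSS), Sycp3 (whole genome), and Mael and Sycp1 (250 bases). Counting the genes with a higher Nsl1 ratio under alternatives was added after seeing the data, and the count ran from 5 to 9. No share of all TSSs was computed beside it under the alternatives. Of 160 values of single genes, 8 moved beyond their interval. With reads within 250 bases these were Msl1 at Sycp3 (1.94) and Nsl1 at Sycp3 (4.70), Tex19.1 (5.09), Hormad1 (7.16) and Slc25a31 (5.05). With the level of the whole genome they were Msl1 at Stra8 (3.40) and Tex19.1 (5.45) and Nsl1 at Tex19.1 (5.97). The cause was not tested. No paired analysis was possible because there is 1 library per antibody and no result comes from a test between replicates. Leaving out a replicate was not possible for the same reason. The 12 to 56 reads in a window limit what can be seen, and ratios whose intervals include 1 are not shown to equal the local level.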
